A study of Mus musculus with 8 samples.

Results

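The major urinary protein genes were examined in RNA sequencing of the liver of fasted female mice. The members are the 10 rows named Mup1, Mup2, Mup3, Mup7, Mup10, Mup11, Mup15, Mup17, Mup20 and Mup21, of 45706 rows in the table of estimated counts, and 10 of 10 passed the filter on low counts, which left 14629 genes. Another 11 rows carry the name Mup and a number, and their values are given for the sum of the family. The members were chosen by the difference between the genotypes in these libraries, foremost that of Mup15, so their differences are described here and carry no test.

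The libraries came from 4 WT and 4 SA/SA mice, with 1 library per mouse. All were C57BL/6J females, 4 months old and fasted overnight. SA/SA mice carry PLIN5 S155A, in which a serine of perilipin 5, a lipid droplet protein, was replaced with alanine in the whole animal by CRISPR-Cas9, in a line checked by sequencing in 1 founder, and the labels do not say whether WT mice were littermates. The labels give hepatocytes as the cell type and liver as the tissue, and stellate, Kupffer and endothelial genes were read in every library, so the values are those of whole liver, in which fewer cells of a type and less RNA per cell cannot be told apart.

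Total counts per library were between 39709785 and 54540864. Replicates 1 and 4 of each genotype have animal numbers below 200, and replicates 2 and 3 have numbers above 800. The labels do not say what these number series mean, and differences are also given within each. Plin5 mRNA, which the edit changes in sequence and is not meant to remove, was at 254, 194, 183 and 194 CPM in WT mice 1 to 4 and at 457, 276, 192 and 386 CPM in SA/SA mice 1 to 4 (log2 fold change 0.67, SE 0.24, adjusted p = 0.993 by the edgeR quasi-likelihood test). CPM values are counts scaled to library sizes normalized with TMM. Hepatocyte markers (7 of 8 listed were in the table) summed to between 96100 and 113000 CPM in WT and between 92300 and 130000 CPM in SA/SA mice. SA/SA mouse 3 stood apart in lymphocyte markers, which summed to 2060 CPM there and to between 17.8 and 42.8 CPM in the other 7 mice, and WT mouse 2 in pancreatic acinar markers, at 28.6 CPM against 4.14 to 6.43 CPM.

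Major urinary proteins are small lipocalins that hepatocytes secrete into blood and the kidney passes into urine, where they carry volatile pheromones and act as scent signals themselves. Their genes lie in a tandem array, most of them near-identical copies made by recent duplication, and the adult liver of males makes far more of them than that of females. Pulsatile growth hormone acting through STAT5 is their best known driver, along with androgen, thyroid hormone and glucocorticoid.

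All 10 members lie on the minus strand of chromosome 4, in chr4:60066469-62150863 (GRCm38, GENCODE M21), a span of 2084395 bases with 20 Mup genes and 26 Mup pseudogenes. The longest coding transcript of each member has 7 exons, except that of Mup21, which has 6. Mup1, Mup2, Mup7, Mup10, Mup11, Mup15 and Mup17 belong to the near-identical copies, with coding sequences 98.3% to 99.6% identical to one another. Mup20 was 90.1% to 91.3% identical to these 7. Mup3 and Mup21, at one end of the array, were 94.7% identical to each other and 82.5% and 83.8% identical to Mup15.

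Differences between the copies are shown at the start of the coding sequence. This is the 60-base window within 1 coding exon in which 5 copies of the same length differed most from Mup15. Being picked for its differences, it does not stand for the whole coding sequence. The fifth copy, Mup14, is not a member and is not shown. It differed from Mup15 at 3 bases of the window and at 6 of all 540. Bases 1 to 60 of the 540 coding bases are shown from coding exon 1, minus strand, of the GENCODE M21 transcripts, and capitals mark bases that differ from Mup15. Over all 540 bases, Mup17 differed from Mup15 at 8, Mup7 at 7, Mup10 at 6 and Mup2 at 2. The windows lie at chr4:61439573-61439632 for Mup15, chr4:61595701-61595760 for Mup17, chr4:60582029-60582088 for Mup10, chr4:60139727-60139786 for Mup2 and chr4:60070241-60070300 for Mup7.
Mup15: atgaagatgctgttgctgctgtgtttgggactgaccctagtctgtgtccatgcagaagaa
Mup17: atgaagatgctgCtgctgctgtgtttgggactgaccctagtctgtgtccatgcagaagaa
Mup10: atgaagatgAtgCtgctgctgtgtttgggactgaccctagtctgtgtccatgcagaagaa
Mup2: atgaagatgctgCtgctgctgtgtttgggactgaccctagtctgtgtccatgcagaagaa
Mup7: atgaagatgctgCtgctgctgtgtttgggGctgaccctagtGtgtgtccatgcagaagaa

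The sequence upstream of the start was less alike than the coding sequence in most pairs of members compared. RefSeq promoters (GRCm38.p6, 250 bases before to 50 after the start) matched 8 of 10 members, with Mup1 and Mup20 not matched. Searched on both strands, the motif TATATAA, a core promoter box, was in 7 of 8 of these promoters and in 3.24% of 32851 promoters of all genes. The motif ATCAAT, a core of the site that HNF6 (Onecut1) binds, was in 8 of 8 on either strand, against 7.54% of all promoters, and TTCNNNGAA, the site of STAT5, was in 0 of 8, against 8.3%. Matches of TATATAA on both strands overlap in Mup10, and a match is a run of letters only. The 160 bases that end with TATATAA are shown for the 2 members with the largest differences and for the 2 most abundant, 5′ to 3′ on the minus strand, with TATATAA and ATCAAT on either strand in capitals. The windows of Mup15 and Mup17 were 96.3% identical (98.5% in coding sequence), those of Mup15 and Mup10 90.9% (98.9%) and those of Mup15 and Mup3 57.5% (82.5%). Mup11, whose window is not shown, was the exception, with 98.8% identity to the window of Mup17 (98.5%). The windows shown lie at chr4:61439723-61439882 for Mup15, chr4:61595851-61596010 for Mup17, chr4:60582179-60582338 for Mup10 and chr4:62087322-62087481 for Mup3.
Mup15: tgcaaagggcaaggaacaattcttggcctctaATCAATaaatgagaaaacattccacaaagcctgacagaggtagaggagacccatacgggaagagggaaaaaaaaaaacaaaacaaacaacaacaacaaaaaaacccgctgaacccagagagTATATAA
Mup17: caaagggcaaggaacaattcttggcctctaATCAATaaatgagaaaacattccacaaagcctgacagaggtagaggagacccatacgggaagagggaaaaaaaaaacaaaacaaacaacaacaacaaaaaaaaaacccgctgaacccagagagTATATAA
Mup10: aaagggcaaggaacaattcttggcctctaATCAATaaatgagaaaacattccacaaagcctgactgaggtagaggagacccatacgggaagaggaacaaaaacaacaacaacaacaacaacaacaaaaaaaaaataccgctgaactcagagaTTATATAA
Mup3: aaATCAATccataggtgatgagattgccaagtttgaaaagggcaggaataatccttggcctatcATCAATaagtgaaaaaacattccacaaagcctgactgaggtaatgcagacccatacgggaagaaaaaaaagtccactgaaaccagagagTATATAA

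Since reads of such copies can be assigned to the wrong one, the summed value of the family comes before that of each gene. The 10 members summed to 2280, 1670, 2620 and 2090 CPM in WT mice 1 to 4 and to 1630, 1050, 959 and 2190 CPM in SA/SA mice 1 to 4. SA/SA mice 2 and 3 were the lowest of the 8, SA/SA mouse 1 was just under the lowest WT mouse, and SA/SA mouse 4 lay within the WT range, so the groups overlapped. Means (± SD, n = 4 each) were 2160 ± 397 CPM for WT and 1460 ± 573 CPM for SA/SA liver, or 67.6% of WT. The difference in mean log2 of the sum was -0.63 (SE 0.31), and it was -0.21 in mice with numbers below 200 and -1.06 in mice with numbers above 800. It was -0.46 without SA/SA mouse 3, the library with high lymphocyte markers, and -0.75 without WT mouse 2.

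Adding the other 11 rows gave 2830, 1890, 3020 and 2350 CPM in WT and 1800, 1150, 1200 and 2420 CPM in SA/SA mice, with a difference of -0.66 (SE 0.30). The sum over the 15 rows at least 95% identical to Mup15 in coding sequence, a set chosen after the values were seen, was 1630, 1020, 1520 and 892 CPM in WT and 846, 388, 644 and 948 CPM in SA/SA mice. In that sum, too, 3 of 4 SA/SA mice lay below the lowest WT mouse and the groups overlapped (difference in mean log2 -0.87, with -0.43 in the low and -1.31 in the high number series). How reads were divided among the copies does not enter a sum over these copies, apart from reads given to rows outside the set.

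**Figure D1:**
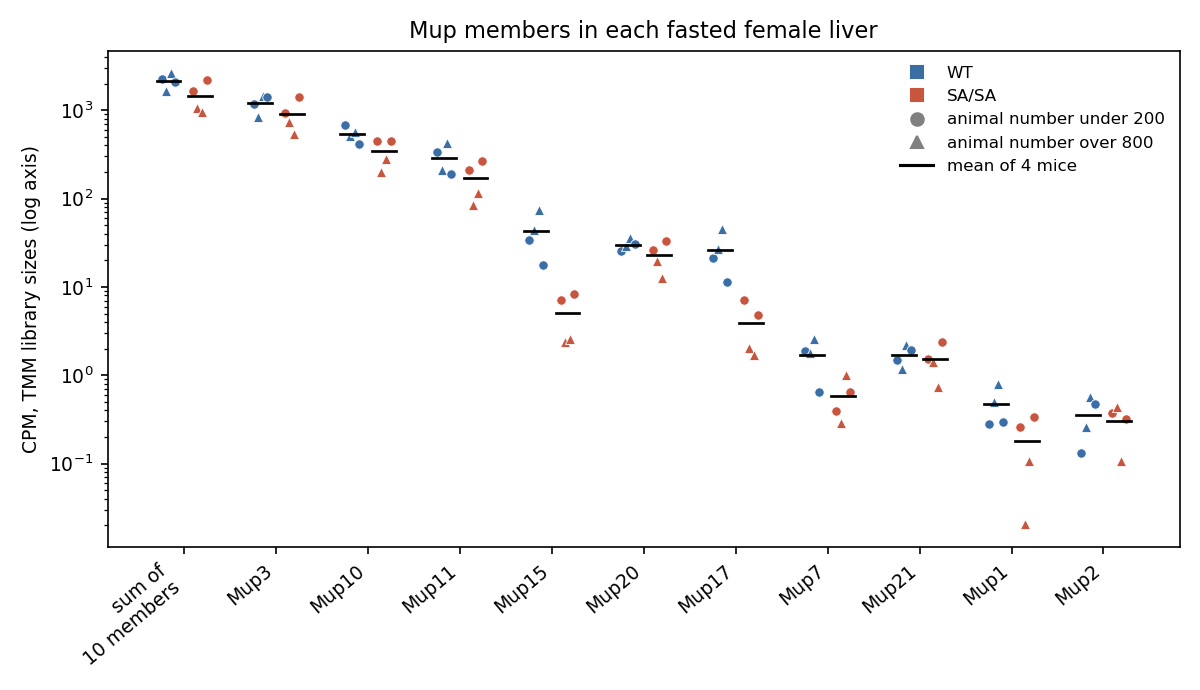
CPM of each member and of the sum of the 10 members in 4 WT and 4 SA/SA fasted female livers, on a log axis, with circles for animal numbers under 200, triangles for numbers over 800 and bars for the mean of 4 mice. Mup15 and Mup17 separate by genotype, whereas the sum and Mup3, Mup10 and Mup11, which make up most of it, overlap.

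Across the members, 10 of 10 had a log2 fold change below 0, beside 51.2% of all genes tested, and 4 of 10 were below -1, beside 0.854% of all genes. Values of the genotypes did not overlap for 2 members, Mup15 and Mup17, beside 1.36% of all genes that were lower without overlap and 2.3% that did not overlap in either direction. The median log2 fold change of the members was -0.72 (range -3.05 to -0.15), and that of all genes was -0.01. At an adjusted p under 0.05 edgeR called 0 of 10 members and 0% of all genes. At an unadjusted p under 0.05 it gave 4 of 10 lower members, beside 1.98% of all genes that were lower and 3.4% in either direction, and DESeq2 called 2 of 10 (Mup15 and Mup17) at an adjusted p under 0.05, beside 0.041% of all genes. Because differences in these libraries chose the members, nothing is read from these counts.

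Mup15 (ENSMUSG00000096674, chr4:61435790-61439743), one of the near-identical copies, had the largest difference of the members. It was at 33.6, 44.2, 74.9 and 17.8 CPM in WT mice 1 to 4 and at 7.14, 2.4, 2.59 and 8.29 CPM in SA/SA mice 1 to 4. Each SA/SA mouse was lower than each WT mouse, and SA/SA mice 2 and 3 were the lowest. Means (± SD, n = 4 each) were 42.6 ± 24.1 CPM for WT and 5.10 ± 3.05 CPM for SA/SA liver, a log2 fold change of -3.05 (SE 0.52). The estimated counts behind it ran from 98 to 3556. Within the number series, mean log2 CPM differed by -1.66 (low) and -4.51 (high), and the fold change stayed between -3.39 and -2.64 when any 1 mouse was left out.

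Mup17 (chr4:61591929-61595871), a nearby copy with a coding difference at 8 bases from Mup15, had a similar pattern. It was at 21.4, 27.1, 45.3 and 11.4 CPM in WT and at 7.04, 2.03, 1.69 and 4.77 CPM in SA/SA mice. The groups did not overlap, WT mouse 3 was again the highest and WT mouse 4 the lowest of the WT mice. The log2 fold change was -2.75 (SE 0.52), with -1.42 in the low and -4.21 in the high number series. Over the 8 mice, which share these libraries, the log2 CPM of Mup15 and Mup17 had a Pearson r of 0.991, and 0.962 with the genotype means taken out. The 2 genes together summed to 55, 71.3, 120 and 29.2 CPM in WT and to 14.2, 4.43, 4.28 and 13.1 CPM in SA/SA mice, and the SA/SA mean was 13% of that of WT.

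Mup3 (chr4:62083476-62087342), the most abundant member, has a sequence largely its own. It was at 1170, 843, 1460 and 1420 CPM in WT and at 928, 740, 545 and 1430 CPM in SA/SA mice. SA/SA mice 2 and 3 lay below the lowest WT mouse and SA/SA mice 1 and 4 within the WT range, so the groups overlapped (log2 fold change -0.43, SE 0.28). The difference was -0.17 in the low and -0.81 in the high number series.

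Mup10 (chr4:60578260-60582199) and Mup11 (chr4:60658466-60662411) are the most abundant of the near-identical members. Mup10 was at 684, 507, 574 and 410 CPM in WT and at 450, 200, 279 and 444 CPM in SA/SA mice (log2 fold change -0.67, SE 0.26). Mup11 was at 336, 211, 421 and 188 CPM in WT and at 209, 85.3, 116 and 267 CPM in SA/SA mice (log2 fold change -0.77, SE 0.37). For both genes SA/SA mice 2 and 3 were below each WT mouse and the other two SA/SA mice were within the WT range. The difference was -0.25 and -1.19 for Mup10 and -0.09 and -1.58 for Mup11 in the low and the high number series.

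Mup20 (chr4:62050234-62054158) encodes darcin, the sex pheromone of male urine. It was at 25.3, 29.4, 35.4 and 30.4 CPM in WT and at 26.1, 19.5, 12.6 and 33.5 CPM in SA/SA mice. Both genotypes overlapped, with SA/SA mice 2 and 3 below the WT range (log2 fold change -0.39, SE 0.25), and the difference changed sign between the number series (0.09 in the low, -1.04 in the high). Without SA/SA mouse 3 the fold change of Mup20 was -0.19 and that of Mup3 was -0.25.

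The other 4 members were read at few counts. Mup21 (chr4:62147932-62150863), the relative of Mup3 at the end of the array, was at 1.49, 1.18, 2.21 and 1.91 CPM in WT and at 1.54, 1.41, 0.739 and 2.41 CPM in SA/SA mice. Mup7 (chr4:60066469-60070475) was at 1.86, 1.77, 2.55 and 0.651 CPM in WT and at 0.389, 0.29, 1.0 and 0.653 CPM in SA/SA mice. The groups overlapped for both genes, with SA/SA mouse 3 lowest for Mup21 and SA/SA mouse 2 lowest for Mup7. Mup1 (chr4:60498012-60501960) was at 0.28, 0.498, 0.8 and 0.296 CPM in WT and at 0.26, 0.0207, 0.106 and 0.336 CPM in SA/SA mice. Mup2 (chr4:60135932-60154289) was at 0.131, 0.259, 0.568 and 0.474 CPM in WT and at 0.371, 0.434, 0.106 and 0.316 CPM in SA/SA mice. Mup1 and Mup2 rested on 1 to 38 and 4 to 27 estimated counts per library, and both overlapped between the genotypes. Log2 fold changes were -0.15 (SE 0.36) for Mup21, -1.56 (SE 0.49) for Mup7, -1.34 (SE 0.66) for Mup1 and -0.20 (SE 0.55) for Mup2. Mup2 was at 0.07 without SA/SA mouse 3 and at 0.11 without WT mouse 3, and Mup21 at 0.07 without SA/SA mouse 3.

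Levels of the members spanned 3 steps in WT liver on the scale of mean CPM per kilobase of the longest coding transcript. Mup3 was at 1250 (857 to 1490 over the 4 mice), above Mup10 at 586 (443 to 738). Mup11, at 311 (202 to 453), overlapped with Mup10 in the range over mice. A second step held Mup15 at 46.1, Mup20 at 32.5 and Mup17 at 28.3, whose ranges over mice overlapped one another. The lowest were Mup21 at 2.51, Mup7 at 1.65, Mup1 at 0.505 and Mup2 at 0.386, where each overlapped with the next. In SA/SA liver Mup20, at 24.7 CPM per kilobase, was above Mup15 at 5.52 and Mup17 at 4.19, and the order of Mup3, Mup10 and Mup11 at the top was as in WT.

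Mup3, Mup10 and Mup11 together made up 93.7% to 97.0% of the sum of the 10 members in WT and 97.4% to 98.0% in SA/SA mice. Mup15 was 0.853% to 2.86% of that sum in WT and 0.228% to 0.438% in SA/SA mice, with no overlap. The share of Mup17 was 0.545% to 1.73% in WT and 0.176% to 0.433% in SA/SA mice. The share of Mup20 was 1.11% to 1.76% in WT and 1.31% to 1.85% in SA/SA mice, so it overlapped while those of Mup15 and Mup17 did not.

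**Figure D2:**
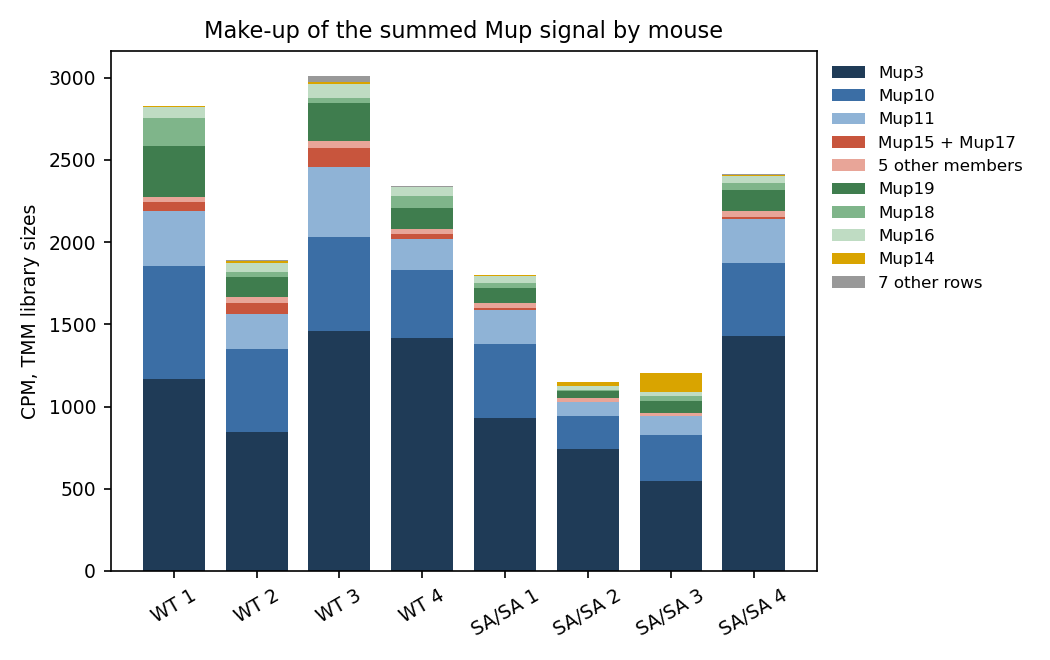
Stacked CPM of the 21 rows named Mup and a number in each mouse, from 0, with blue and red for members and green, yellow and grey for other rows. Mup3, Mup10 and Mup11 fill most of each bar, SA/SA mice 2 and 3 have the shortest bars (1150 and 1200 CPM) and Mup14 is visible as a large block only in SA/SA mouse 3 (115 CPM).

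Of the other 11 rows, 8 passed the filter and 7 of these had a log2 fold change below 0. Mup16 (chr4:61515592-61519531) was at 66.6, 56, 85.4 and 51.7 CPM in WT and at 40.3, 22.3, 22.3 and 47.2 CPM in SA/SA mice, with no overlap (log2 fold change -0.97, SE 0.27). Mup9, at 0.618 to 1.12 CPM in WT and 0.0264 to 0.389 CPM in SA/SA mice, did not overlap either (log2 fold change -1.75, SE 0.57). Mup19 (log2 fold change -1.24, SE 0.37), Mup18 (-1.47, SE 0.62), Mup13 (-2.67, SE 0.93), Mup12 (-1.05, SE 0.71) and Mup8 (-0.91, SE 0.46) overlapped between the genotypes. Mup14 (chr4:61300023-61304000) went the other way, at 6.53, 10.1, 9.41 and 5.21 CPM in WT and at 5.01, 24.1, 115 and 5.85 CPM in SA/SA mice. Only SA/SA mice 2 and 3 were high for Mup14, the same mice in which the sum of the members was lowest (log2 fold change 2.25, SE 0.88). Mup4, Mup5 and Mup6 had 0 to 4 counts per library and were not tested.

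The difference between genotypes was larger in the mice with numbers above 800 for each of the 10 members. In the low series 6 of 10 members were lower in SA/SA mice, with a median difference in mean log2 CPM of -0.13, and in the high series 10 of 10, with a median of -1.39. Mup15, Mup17 and Mup7 were lower by more than 1 on the log2 scale in both series. The other Mup rows shared this pattern in part. Of the 8 tested, 8 were lower in the low and 7 in the high series, with medians of -0.837 and -1.38. Mup9 (-1.02 and -2.82), Mup12 (-0.815 and -1.17), Mup13 (-0.009 and -3.32), Mup16 (-0.427 and -1.63) and Mup19 (-0.887 and -1.59) differed more in the high series. Mup18 (-1.62 and -0.98) and Mup8 (-0.859 and -0.767) differed less, and Mup14 changed sign (-0.107 and 2.42). The sum of the other 11 rows, which includes Mup14, differed by -0.97 and -0.95. Each series holds 2 mice of each genotype, and the difference between the series was not tested. The share of all genes that was lower in each series is not given here. The counts by series are therefore not read as a trait of Mup genes.

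**Figure D3:**
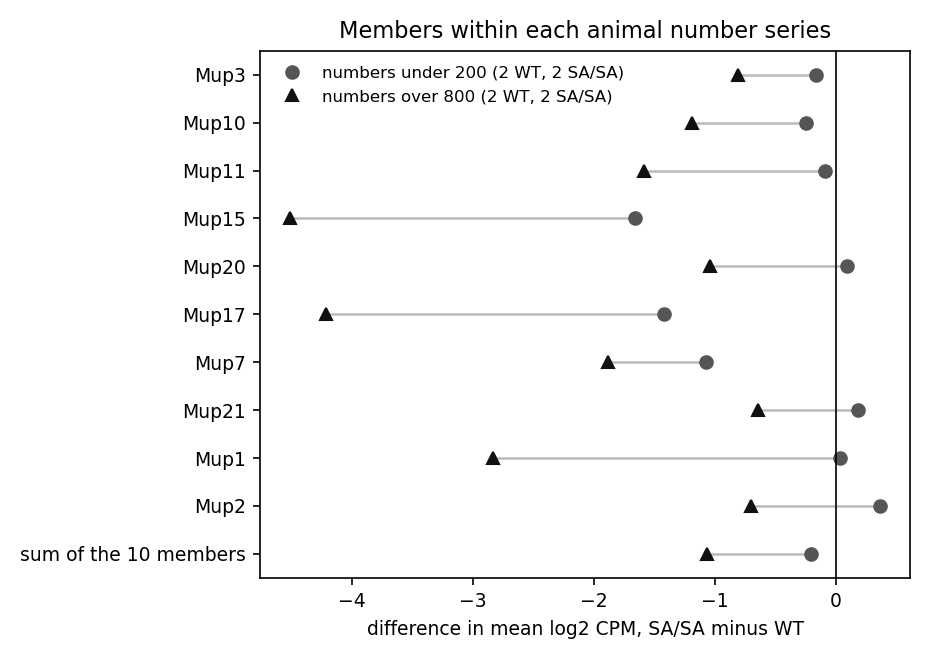
Difference in mean log2 CPM, SA/SA minus WT, for each member and for their sum, in mice with animal numbers under 200 (circles) and over 800 (triangles), 2 WT and 2 SA/SA mice in each. Triangles lie to the left of circles in every line, with -4.51 against -1.66 for Mup15 and -1.06 against -0.21 for the sum.

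The sequence that a gene shares with other copies sets how firmly its reads can be placed. Of the distinct 100-base windows of its transcripts, the length of 1 read, Mup3 had 97.8% to itself, Mup21 95.5%, Mup20 61.2% and Mup1 44.3%. Mup17 had 40.6%, Mup11 29.4%, Mup10 26.6%, Mup2 24.5% and Mup7 23.9%. Mup15 had 2.66%, and of its 31-base windows none was its own, so each stretch of that length also occurs in another Mup transcript. Of the other members, Mup2 held 67.8% of the 100-base windows of Mup15, Mup1 66.5%, Mup7 59.3%, Mup11 51.1%, Mup10 37.9% and Mup17 7.75%. Mup3, Mup20 and Mup21 held none. Of the other Mup rows, Mup12 held 66.3%, Mup19 54.5% and Mup14 46.2%, and the rest 43.1% or less. Mup12 and Mup19 had log2 fold changes of -1.05 and -1.24, and Mup14 of 2.25. Mup14 was highest in SA/SA mice 2 and 3 (24.1 and 115 CPM), where Mup15 was lowest (2.4 and 2.59 CPM). Movement of reads between Mup15 and these rows was not tested. Mup3, Mup21 and Mup20, with the largest shares to themselves, had log2 fold changes of -0.43, -0.15 and -0.39. Mup15, with the smallest share, was at -3.05. Members with shares between these did not follow the order of the shares, and a link between share and fold change was not tested. Mup17, with 40.6% of windows to itself, was at -2.75, and Mup1, with 44.3%, at -1.34, while Mup2, with 24.5%, was at -0.20. Paired reads hold more than 1 such window, which these shares do not count.

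**Figure D4:**
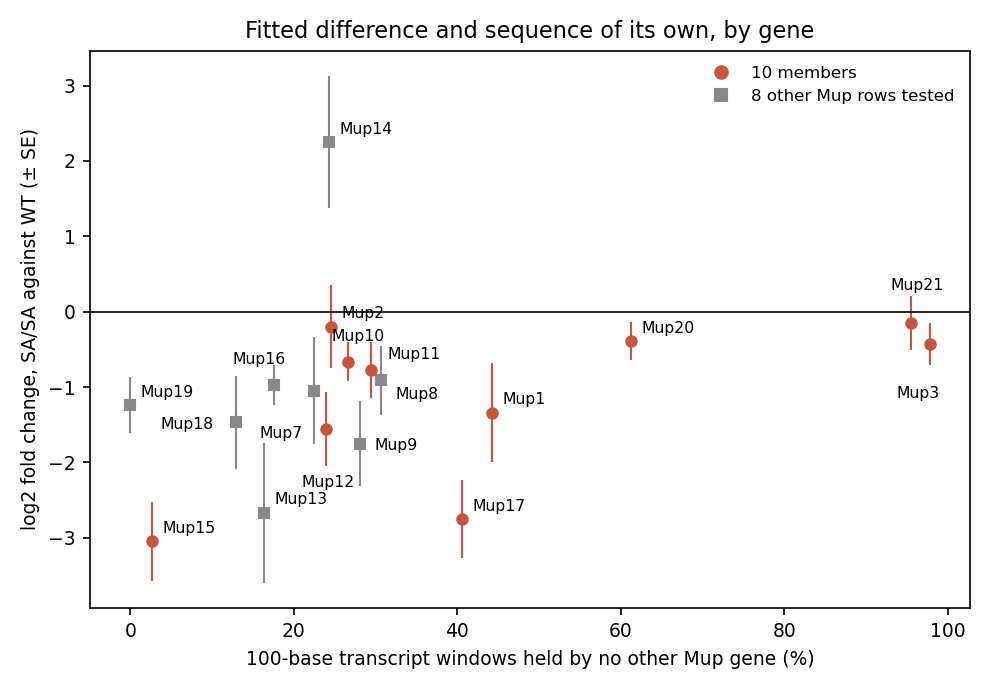
Log2 fold change with its SE against the share of 100-base transcript windows that no other Mup gene holds, for the 10 members (circles) and 8 other Mup rows (squares). The 3 members with more than 60% of windows to themselves (Mup20, Mup21 and Mup3) lie between -0.43 and -0.15, and the rows with smaller shares spread widely, from Mup15 (2.66%) at -3.05 and Mup17 (40.6%) at -2.75 to Mup19 (0%) at -1.24, Mup2 (24.5%) at -0.20 and Mup14 (24.3%) at 2.25.

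Across the 45 pairs of members the Pearson r of log2 CPM over the 8 mice ran from -0.263 to 0.991 (median 0.707), and 42 were above 0. With genotype means taken out, 40 were above 0 (median 0.517). These are values of the same libraries, and reads shared between copies enter both genes of a pair. Outside the family, of 12108 genes with a mean of at least 1 CPM, the 5 most like the sum of the members were 1700047M11Rik (r = 0.986, Spearman's rho 0.976), Necap1 (0.980, 0.976), Usp45 (0.978, 0.952), Epb4.1l1 (0.969, 0.905) and Dnajc12 (0.967, 0.976). The 5 most like Mup15 were Taf13 (0.943, 0.952), Tceanc (0.939, 0.952), Dnajc18 (0.939, 0.929), Rassf8 (0.938, 0.881) and Sult2a7 (0.938, 0.905), also over 8 mice. With genotype means taken out, r was 0.668 to 0.796 for the genes most like Mup15. It was 0.947 to 0.983 for those most like the sum. Being the highest of 12108 values from 8 libraries, both sets of genes are given as a description.

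Genes on either side of the array were compared next. E130308A19Rik (log2 fold change -0.28, SE 0.21), Inip (0.15, SE 0.23) and Snx30 (-0.33, SE 0.16) precede it, and Zfp37 (-0.17, SE 0.60), Slc31a2 (-0.24, SE 0.12) and Fkbp15 (0.04, SE 0.11) follow. Inside it, the genes Gm13775 and Gm12909 were at -0.37 (SE 0.26) and -0.39 (SE 0.38). None of these 8 genes passed the test (edgeR quasi-likelihood test, adjusted p at least 0.993), and none of the members passed it either. Slc31a2 was at 6.89 to 7.85 CPM in WT and 5.8 to 6.47 CPM in SA/SA mice, without overlap. Of all genes tested, 1.36% were lower without overlap. The other neighbours overlapped between the genotypes.

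Growth hormone signalling drives Mup transcription, and the mRNA levels of its genes were then described. The activity of the pathway was not measured. Of 10 listed genes 10 were tested, and 0 rose and 0 fell (edgeR, adjusted p at least 0.993 and 0 at an unadjusted p under 0.05), with a median log2 fold change of -0.03. Ghr, the growth hormone receptor, was at 188 to 221 CPM in WT and 176 to 220 CPM in SA/SA mice, and Stat5b, the factor it activates, at 45.5 to 65 and 44.3 to 63.9 CPM. Jak2, the kinase of the receptor, was at 9.81 to 11.6 CPM in WT and 7.76 to 9.29 CPM in SA/SA mice (log2 fold change -0.26, SE 0.12). The groups did not overlap for Jak2, and 1.36% of all genes tested were lower without overlap. Socs2, a feedback inhibitor, had a log2 fold change of 0.37 (SE 0.66). Cux2, a female-specific repressor of male-biased liver genes, was at 1.44, 20.6, 11.8 and 19 CPM in WT and at 40.5, 20.2, 21.4 and 29.5 CPM in SA/SA mice (log2 fold change 1.08, SE 0.59). WT mouse 1 was far the lowest for Cux2, and SA/SA mouse 2 was within the WT range.

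Of 12 transcription regulators linked to Mup genes, 12 were tested and 0 passed in either direction (edgeR, adjusted p at least 0.993, and 0 at an unadjusted p under 0.05), with a median log2 fold change of 0.06. Cebpb, a factor of the acute phase and of gluconeogenesis, was at 30.6, 55.6, 37.4 and 30.2 CPM in WT and at 32.3, 84.1, 81.4 and 46.6 CPM in SA/SA mice (log2 fold change 0.67, SE 0.31). It was highest in SA/SA mice 2 and 3, those with the lowest sum of the members. Zhx2, a factor that regulates several liver genes, had a log2 fold change of -0.25 (SE 0.14), and Foxa1, a pioneer factor of liver, of -0.23 (SE 0.22). Hnf4a, a main factor of hepatocyte identity, was at 570 to 932 CPM in WT and 547 to 1080 CPM in SA/SA mice.

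Sex-biased genes other than the Mup family were set beside it. Of 11 male-biased genes 8 were tested and 0 passed (median log2 fold change 0.08), with Slco1a1 at 0.61 (SE 1.35), Elovl3 at -0.39 (SE 0.44) and Serpina1e at 0.37 (SE 0.47). Elovl3, a fatty acid elongase, was at 14.3, 5.08, 7.66 and 5.53 CPM in WT and at 9.88, 3.78, 2.77 and 8.46 CPM in SA/SA mice, with SA/SA mice 2 and 3 the lowest and the groups overlapping. Of 16 female-biased genes 16 were tested and 0 passed (median -0.01). Cyp3a41b was at -0.57 (SE 0.64) and Cyp17a1 at 0.48 (SE 0.33).

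Of 11 other lipocalins 9 were tested and 0 passed (median log2 fold change -0.03), with Ptgds at -0.96, Lcn2, an acute phase protein, at -0.48 and Orm2 at -0.36. Of 8 genes of the fasting response 8 were tested and 0 passed (median 0.05), with Igfbp1 at -0.45 and Pdk4 at -0.44. All adjusted p values of these 4 lists were at least 0.993 by edgeR.

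Of 5 stellate cell markers 5 had a log2 fold change below 0 (median -0.43, 0 passing the test), and they summed to 207 to 279 CPM in WT and 90.5 to 210 CPM in SA/SA mice, lowest in SA/SA mouse 2. Of 5 Kupffer cell markers 5 were above 0 (median 0.26, 0 passing), and they summed to 146 to 301 CPM in WT and 165 to 354 CPM in SA/SA mice. Of 7 lymphocyte markers 7 were above 0 (median 1.07, 0 passing), with SA/SA mouse 3 apart from the rest. Endothelial markers (3 of 5 below 0) summed to 111 to 161 and 97.7 to 133 CPM, and cholangiocyte markers (4 of 5 below 0) to 27.1 to 85.4 and 36.7 to 43.8 CPM. The sum of the hepatocyte markers was 125000 CPM in SA/SA mouse 2 and 130000 CPM in SA/SA mouse 3, the highest of the 8 mice. The Mup sums of these mice were the lowest. Most of the hepatocyte sum was Alb, at 90800 and 97400 CPM in these mice, and 4 of 7 hepatocyte markers were below 0 (median -0.08). Apoa1 was also highest in SA/SA mouse 2, while Ttr and Serpina1c were highest in WT mouse 3 and Fgb and Cps1 in WT mouse 1. The part of these differences in the values of the Mup genes was not tested.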

How the data were processed

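Liver RNA of 4 WT and 4 SA/SA mice was measured with stranded mRNA libraries, 1 per mouse, read as 100-base pairs. The deposited table holds estimated counts from salmon, which the authors scaled for transcript length and left without normalization for library size. The labels name bcl2fastq, STAR, SAMtools, MultiQC, DESeq2 and GRCm38. The salmon version, annotation and use of strand are not given in the sources used here. Salmon divides reads of near-identical copies by a model, which can move counts between Mup genes. Counts were rounded, filtered with filterByExpr (14629 of 45706 rows kept) and compared by the edgeR 4.0.16 quasi-likelihood test (R 4.3.3, TMM, Benjamini-Hochberg), with a script tested on simulated data. Log2 CPM used a prior count of 2. The difference of a sum is that of mean log2 CPM, and its SE comes from the spread of the mice. DESeq2 1.42.0, limma-voom 3.58.1, other scalings and leaving out each mouse were alternatives. Transcript windows and coding identity come from GENCODE M21.

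Members, lists and comparisons were chosen with earlier results of these data known. The text names every member, the 3 genes of each list with the largest change, the 5 genes most like the sum and most like Mup15, and 3 neighbours on each side, except for 2 list genes that are not reported here; Ghr, Stat5b, Hnf4a and other Mup rows were named after their values were seen. No 2 libraries were alike within sampling noise. Mice of 1 genotype were treated as separate samples, as the labels give them.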

Additional observations from a re-analysis of the deposited data

Results flagged for a closer look

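In 40 groups of 4 mice (members, other Mup rows and 2 sums, in each genotype), 1 mouse stood apart by Dixon's criterion in 2, and chance alone gives about 1 in 20 groups. Mup13 was at 38.6 CPM in WT mouse 3 and at 1.16 to 4.86 CPM in the other 3 WT mice. Mup12 was at 0.297 CPM in SA/SA mouse 1 and at 0.0395 to 0.0827 CPM in the other 3 SA/SA mice, a level of few counts. Neither gene is among the 10 members.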

How the results depend on the processing

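The difference of the summed members (-0.63) was -1.17 when the log2 CPM of the 10 members was averaged instead, which gives genes of few counts the same weight as Mup3, and -1.60 over the members without Mup3, Mup10 and Mup11, a set added after the data were seen. It stayed below 0 under the other settings tried, from -0.86 to -0.46 when 1 mouse was left out. With DESeq2, 6 genes and 2 members (Mup15 and Mup17) passed an adjusted p of 0.05, against 0 and 0 with limma-voom. The counts were also 0 and 0 with edgeR under each of its settings, including those with any 1 mouse left out. DESeq2 was not run with a mouse left out, and the cause of the difference between the tools was not tested. Without SA/SA mouse 3 or without WT mouse 3, 8 of 10 members were below 0 (Mup2 and Mup21 were not), and 10 of 10 under each other setting. Deviations of same-numbered mice correlated at 0.06, 0.17, -0.11 and 0.13, and those of other WT and SA/SA pairs at -0.194 to 0.14. These ranges overlap, so they cannot settle whether replicate numbers pair the mice. With the replicate block the sum was at -0.63 and 0 genes passed. Depth limits Mup1 and Mup2 most, with as few as 1 and 4 counts in a library.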
